A study of Homo sapiens with 8 samples.

Results

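The androgen receptor does not act on chromatin alone in luminal prostate cells. FOXA1 and GATA2 are pioneer factors that open chromatin for the receptor, HOXB13 is a prostate-lineage homeobox factor that binds beside it, and SPDEF, GRHL2 and ELK4 are further factors of the luminal epithelium or of androgen-regulated transcription. These 6 genes were looked up by name among the 78691 genes of the count table. All 6 names were found, each in the row with the most counts for that name. FOXA1 and SPDEF also belonged to an androgen receptor gene panel that the study assembled on these same samples, so their direction here is not independent of that panel.

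The study asked how L-MYC, the protein of MYCL, bears on neuroendocrine lineage programs in prostate cancer. RNA was sequenced in 8 libraries, 2 in each of 4 conditions. C4-2B, a castration-resistant prostate adenocarcinoma line, carried either an empty lentiviral vector (C4-2B control) or a lentiviral human MYCL driven by the EF1A promoter and linked to EGFP (C4-2B MYCL). NCI-H660, a neuroendocrine prostate cancer (NEPC) line, carried either a non-targeting shRNA (shCtrl) or shRNA against MYCL (shMYCL). Both lines were grown in RPMI-1640 with 10% serum. The sources name an adenoviral vector for the knockdown in some places and stable lentiviral knockdown in others, and which of these made the NCI-H660 libraries is not settled between them. Each condition is a single line under a single construct. The libraries are called replicates in the labels, with biological replication stated only for C4-2B control, so p-values measure the spread between these libraries, which may be technical.

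Totals ran from 15177071 to 32344170 counts per library, highest in the C4-2B control libraries. MYCL moved as labelled. In C4-2B it had 371 and 320 counts in control and 65524 and 70253 counts after overexpression, and in NCI-H660 it had 1863 and 1602 counts in shCtrl against 165 and 198 in shMYCL. The line labels were checked on marker genes. The summed level of 7 neuroendocrine markers was 0.598 to 1.09 TPM (a level scaled by gene length and library size) in the C4-2B libraries and 932.5 to 1310 TPM in NCI-H660. The 7 luminal markers summed to 1779 to 2379 TPM in C4-2B and 1274 to 1425 TPM in NCI-H660, where KLK2 and KLK3 did not exceed 3 counts. Most of the NCI-H660 sum came from the keratin genes KRT8 and KRT18, with means of 813.2 and 454.2 TPM in shCtrl. TMPRSS2 had 23 and 26 counts in shCtrl against 9207 and 7220 in C4-2B control. SLC45A3 had 75 and 76 against 17303 and 11782. ACP3 was low in both, at 95 and 114 against 173 and 107. The sum therefore does not measure the prostate-specific markers in NCI-H660. Basal, stromal, endothelial and leukocyte markers, of which 6 of 7 were analysed, summed to at most 2.205 TPM in any library.

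The promoters of the 3 factors that fell in C4-2B are shown first, because MYC family proteins bind E-boxes and because the factors belong to families with short, well known motifs. They run from 250 bases before to 50 bases after the RefSeq start (GRCh38.p14), 5′ to 3′ on the minus strand, which is the coding strand of all 3 genes. Capitals mark CGGAAG, the ETS core, in ELK4 and CANNTG, the general E-box, in FOXA1. SPDEF has no capitals because none of the searched letters occur in its window.
ELK4, chr1:205631962-205632261: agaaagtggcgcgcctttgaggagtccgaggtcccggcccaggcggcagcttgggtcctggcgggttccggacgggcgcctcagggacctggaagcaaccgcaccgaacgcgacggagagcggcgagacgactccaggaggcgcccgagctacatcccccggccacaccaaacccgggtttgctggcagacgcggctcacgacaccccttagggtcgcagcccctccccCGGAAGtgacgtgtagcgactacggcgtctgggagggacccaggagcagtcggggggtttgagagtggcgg
FOXA1, chr14:37595200-37595499: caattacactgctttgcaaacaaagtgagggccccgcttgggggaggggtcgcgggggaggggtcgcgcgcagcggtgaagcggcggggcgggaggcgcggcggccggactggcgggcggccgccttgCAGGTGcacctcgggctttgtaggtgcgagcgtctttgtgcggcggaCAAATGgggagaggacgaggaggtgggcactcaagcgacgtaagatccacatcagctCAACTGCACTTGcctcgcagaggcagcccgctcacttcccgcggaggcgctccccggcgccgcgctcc
SPDEF, chr6:34556280-34556579: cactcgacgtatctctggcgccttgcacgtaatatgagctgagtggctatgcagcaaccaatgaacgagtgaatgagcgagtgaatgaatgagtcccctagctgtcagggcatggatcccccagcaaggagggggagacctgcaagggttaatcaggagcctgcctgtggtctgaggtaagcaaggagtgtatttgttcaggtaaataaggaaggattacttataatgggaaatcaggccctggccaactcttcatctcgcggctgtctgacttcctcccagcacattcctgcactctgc

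Both strands were searched for 6 motifs. The canonical E-box CACGTG was held by 7.26% of all 35116 promoters of this length and its variant CACGCG by 11.4%. The general form CANNTG, which includes the canonical one, was held by 68.7% and the ETS core CGGAAG by 19.5%. The GATA motif AGATAA was held by 10.3% and the forkhead motif TGTTTAC by 3.42%. ELK4 itself is an ETS factor, and its window held 1 CGGAAG, starting at position −21 from the start. The FOXA1 window held 4 CANNTG. Promoter entries were matched for 4 of the 6 factors. GATA2 has 2 promoter entries, and CACGCG occurred 1 time in each. CACGTG occurred in none of the windows of these 4 genes. These are matches of letters and not binding sites.

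The level of each factor is given first in TPM, a per-length scale on which genes can be compared. In C4-2B control, FOXA1 and HOXB13 were the most abundant, at 94.5 ± 0.640 and 94.3 ± 4.34 TPM (mean ± SD, n = 2), and did not differ beyond their spread. SPDEF followed at 77.9 ± 1.56 TPM and GRHL2 at 53.6 ± 3.74 TPM. GATA2 stood at 35.9 ± 1.25 TPM and ELK4 at 30.3 ± 1.23 TPM. In NCI-H660 shCtrl the order was FOXA1 at 132.6 ± 16.7 TPM, GRHL2 at 29.5 ± 1.17, GATA2 at 24.0 ± 1.91 and ELK4 at 16.4 ± 2.94 TPM, with the libraries of each neighbouring pair in that order not overlapping. HOXB13 and SPDEF were near or at 0 in NCI-H660.

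**Figure D1:**
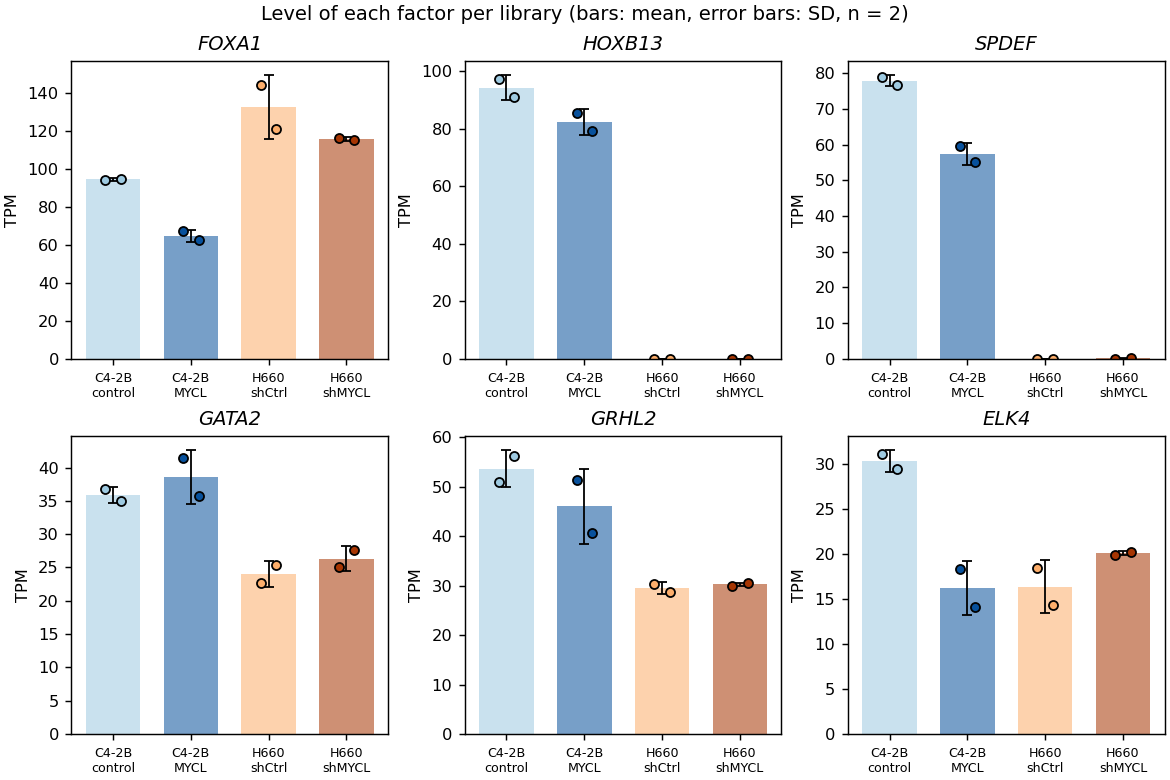
Levels in TPM of the 6 factors in the 4 conditions. Bars are means, error bars SD and points the 2 libraries of each condition; HOXB13 and SPDEF lie near 0 in all 4 NCI-H660 libraries, while FOXA1 lies between 62.4 and 144.4 TPM in all 8.

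MYCL overexpression in C4-2B was accompanied by lower ELK4, FOXA1 and SPDEF and slightly higher GATA2, while HOXB13 and GRHL2 did not pass the test. A gene was called where its Benjamini-Hochberg adjusted p over all genes tested was under 0.05 and its absolute log2 fold change at least 0.25, by edgeR's quasi-likelihood test within the line. By this rule 4 of the 6 factors were called, 3 lower and 1 higher. The fold threshold is the one the study used for its androgen receptor panel on these same samples. FOXA1 and SPDEF belonged to that panel, so their calls here are not independent of it. Of 16866 genes tested in C4-2B, 33.9% were called, 17.2% higher and 16.7% lower.

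ELK4, an ETS factor that acts with serum response factor, fell most. It measured 214.7 and 211.1 CPM (counts scaled to library size, with TMM factors within the line) in control and 139.9 and 116.4 CPM with MYCL. The groups did not overlap, and the 2 MYCL libraries lay further apart than the controls. ELK4 fell by 39.8%, a log2 fold change of −0.73 (SE 0.09, 95% interval −0.94 to −0.52, adjusted p = 0.000504, edgeR). It stayed called when any single library was left out, between −0.86 and −0.61.

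FOXA1 measured 259.3 and 259.8 CPM in control and 196.3 and 196.3 CPM with MYCL. The libraries of each condition were almost equal and the groups were well apart. FOXA1 fell by 24.4%, a log2 fold change of −0.40 (SE 0.07, 95% interval −0.55 to −0.25, adjusted p = 0.002, edgeR). SPDEF, the prostate-derived ETS factor, measured 110.4 and 106.4 CPM in control and 88.3 and 87.7 CPM with MYCL. SPDEF fell by 18.8%, a log2 fold change of −0.30 (SE 0.07, 95% interval −0.46 to −0.14, adjusted p = 0.0106, edgeR). The SPDEF groups did not overlap, but without C4-2B control replicate 1 its adjusted p rose to 0.106.

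GATA2 moved the other way, from 97.6 and 91.8 CPM in control to 117.5 and 110.1 CPM with MYCL. Its log2 fold change was 0.26 (SE 0.08, 95% interval 0.09 to 0.44, adjusted p = 0.0247, edgeR), just above the fold threshold. This call was lost under 10 of 16 alternatives, among them leaving out C4-2B control replicate 1 (adjusted p = 0.0928), C4-2B control replicate 2 (adjusted p = 0.231) or C4-2B MYCL replicate 1 (log2 fold change 0.23). On log2(TPM + 1) values, where the median of all genes itself shifted by −0.14, GATA2 differed by 0.10 (adjusted p = 0.448, limma).

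HOXB13 measured 229.6 and 213.3 CPM in control and 213.7 and 212.9 CPM with MYCL. Its log2 fold change was −0.05 (95% interval −0.22 to 0.11, adjusted p = 0.593, edgeR). GRHL2, a grainyhead factor that maintains epithelial junction genes, measured 195.0 and 204.6 CPM in control and 204.2 and 167.4 CPM with MYCL. Its log2 fold change was −0.10 (95% interval −0.32 to 0.11, adjusted p = 0.439, edgeR). For both genes the groups overlapped, and for GRHL2 the sign turned to 0.03 without C4-2B MYCL replicate 2.

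**Figure D2:**
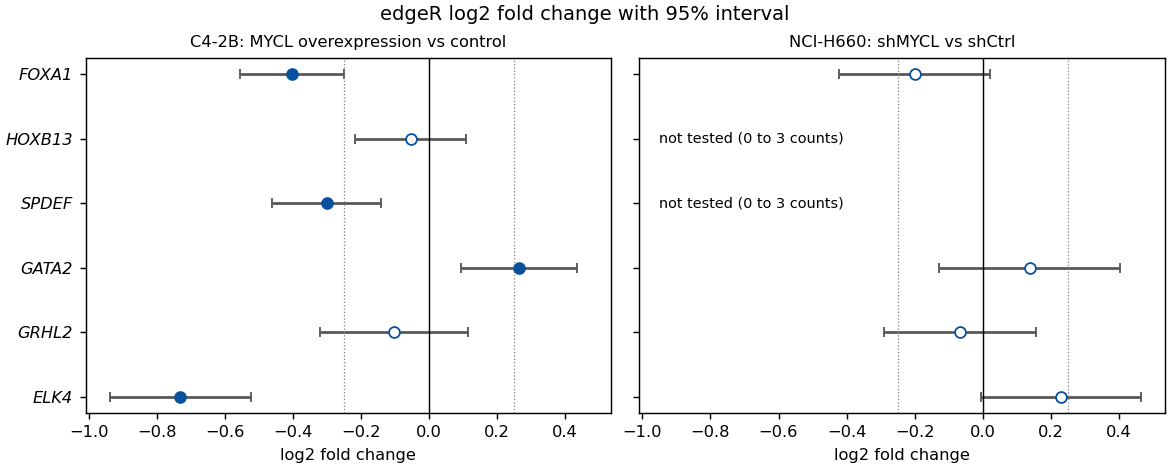
edgeR log2 fold changes of the 6 factors in each line, with 95% intervals. Filled points passed both thresholds, open points did not, and dotted lines mark ±0.25; ELK4, FOXA1, SPDEF and GATA2 are filled in C4-2B and no point is filled in NCI-H660, where HOXB13 and SPDEF were not tested.

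**Figure D3:**
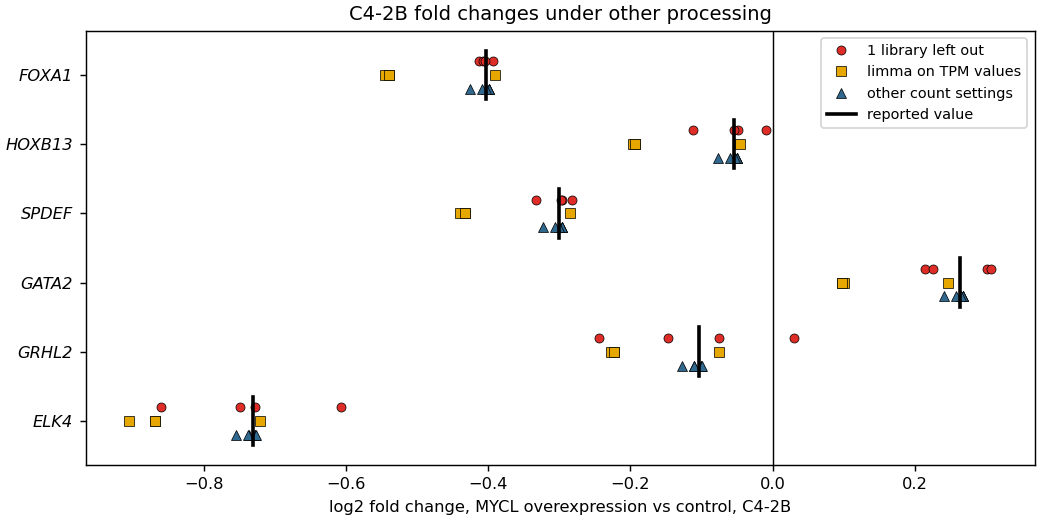
The C4-2B log2 fold change of each factor under other processing. Black bars are the reported values, circles leave out 1 library, squares are limma on TPM values and triangles are other count settings; ELK4, FOXA1 and SPDEF stay below 0 throughout, GATA2 stays above 0 with values from 0.10 to 0.31, and GRHL2 crosses 0.

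Knockdown of MYCL in NCI-H660 gave no call among the 4 factors that could be tested. Of 16980 genes tested in NCI-H660, 24.8% were called, 12.0% higher and 12.7% lower. With edgeR the count was 0 of 4, none of the 4 had an unadjusted p under 0.05, and DESeq2 also gave 0.

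ELK4 measured 99.8 and 84.4 CPM in shCtrl and 110.8 and 105.0 CPM in shMYCL. Its log2 fold change was 0.23 (SE 0.11, 95% interval −0.006 to 0.46, adjusted p = 0.146, edgeR). The groups did not overlap, and without NCI-H660 shCtrl replicate 1 the value rose to 0.36 (adjusted p = 0.0205), which is a call. FOXA1 measured 282.4 and 251.4 CPM in shCtrl and 233.6 and 231.2 CPM in shMYCL. Its log2 fold change was −0.20 (SE 0.10, 95% interval −0.42 to 0.02, adjusted p = 0.182, edgeR). The FOXA1 groups did not overlap either, with the shCtrl libraries further apart than the shMYCL libraries.

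GATA2 measured 41.1 and 50.7 CPM in shCtrl and 48.1 and 53.0 CPM in shMYCL, so that the groups overlapped. The log2 fold change was 0.14 (95% interval −0.13 to 0.40, adjusted p = 0.457, edgeR). GRHL2 measured 91.0 and 83.4 CPM in shCtrl and 84.7 and 82.0 CPM in shMYCL and also overlapped, with a log2 fold change of −0.07 (95% interval −0.29 to 0.16, adjusted p = 0.695, edgeR). HOXB13 had 0 and 1 counts in shCtrl and 0 and 0 in shMYCL. SPDEF had 0 and 0 counts in shCtrl and 1 and 3 in shMYCL. Neither exceeded the 3 counts that a library at 0 allows, so no change of either gene was detectable in NCI-H660 at this depth.

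Whether a factor responded differently in the lines was tested directly, as the effect of higher MYCL in C4-2B minus that in NCI-H660 (control to MYCL, and shMYCL to shCtrl). FOXA1 and ELK4 were called, 2 of the 4 factors measured in both lines, where 20.2% of 19605 genes were called, 10.6% higher and 9.63% lower. These 19605 genes include some that are expressed in a single line. With at least 10 counts in every library, 31.6% of 12771 genes were called. With higher MYCL, FOXA1 differed by −0.40 in C4-2B and 0.20 in NCI-H660, and the difference of these effects was −0.61 (SE 0.12, adjusted p = 0.00364, edgeR). It was called under all 19 alternatives, between −0.74 and −0.53. ELK4 differed by −0.73 in C4-2B and −0.23 in NCI-H660, a difference of −0.51 (SE 0.15, adjusted p = 0.0304, edgeR). That call was lost under 10 of 19 alternatives, 6 of them the omission of any single library other than C4-2B MYCL replicate 1 and NCI-H660 shCtrl replicate 2, with adjusted p from 0.0583 to 0.129. For GATA2 the difference was 0.40 (SE 0.15, adjusted p = 0.0779, edgeR; 0.55 and called, adjusted p = 0.017, without NCI-H660 shCtrl replicate 2, and 0.42 and called, adjusted p = 0.0337, with at least 10 counts in every library) and for GRHL2 −0.17 (SE 0.14, adjusted p = 0.446, edgeR). Overexpression reached a far higher MYCL level (1363 and 1435 TPM) than NCI-H660 shCtrl (64.3 and 48.2 TPM). MYCL was raised by an expression vector in C4-2B and lowered by shRNA in NCI-H660. Dose, line, construct and direction of the MYCL change therefore cannot be told apart.

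The control conditions of the 2 lines differed in 5 of the 6 factors, each lower in NCI-H660 shCtrl than in C4-2B control. Between these conditions 77.2% of 19605 genes were called, 40.1% higher and 37.0% lower, so most genes separated the lines. HOXB13 had 7469 and 5079 counts in C4-2B control against 0 and 1 in shCtrl, a ratio of 8822 (95% counting interval 1583 to 348493). SPDEF had 3591 and 2533 counts against 0 and 0, at least 683-fold higher in C4-2B control with a floor of 3 counts per library. The interval and the floor cover counting error only.

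GATA2, GRHL2 and ELK4 were lower in NCI-H660 but well expressed. The log2 difference was −1.20 for GATA2 (SE 0.11, adjusted p = 1.73e-07, edgeR), −1.36 for GRHL2 (SE 0.10, adjusted p = 3.33e-08) and −1.37 for ELK4 (SE 0.11, adjusted p = 4.99e-08). On log2(TPM + 1) values all 3 were also lower, by less: −0.56 for GATA2, −0.84 for GRHL2 and −0.86 for ELK4 (adjusted p = 0.00171, 0.000358 and 0.00122, limma). FOXA1 did not pass the test, at −0.12 (SE 0.08, adjusted p = 0.203, edgeR). Its direction depended on the scaling: the difference was 0.48 on log2(TPM + 1) values (adjusted p = 0.00237, limma), where the median of all genes shifted by 0.53, and −0.27 after centring each library on its median (adjusted p = 0.0204). FOXA1 was thus at a high level in both lines, and these data set no order between them.

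Relatives of the factors were examined as a list of 22 genes from the FOXA, HOX13, GATA, GRHL and ETS families. Of the 20 tested between the control conditions, all 20 were called, 14 higher and 6 lower in NCI-H660 shCtrl, where 77.2% of all genes were called, with a median log2 difference of 3.49 against 0.03 over all genes. FOXA3 had 0 and 0 counts in C4-2B control and 147 and 189 in shCtrl, at least 67.1-fold higher. FOXA2, a FOXA1 relative known in neuroendocrine prostate cancer and named here after its values were seen, had 0 counts in every C4-2B library, 64 and 120 in shCtrl and 46 and 81 in shMYCL. HOXC13 had 318 and 214 counts in C4-2B control and 0 and 0 in shCtrl, at least 59.1-fold higher in C4-2B. HOXA13 and HOXD13, named here after their values were seen, were higher in NCI-H660 shCtrl instead. HOXA13 had 182 and 136 counts in C4-2B control against 2158 and 1889 in shCtrl, and HOXD13 had 0 and 0 against 29 and 38. Among ETS genes, ELF5 was at least 120-fold higher in C4-2B control and ERG, an oncogenic ETS factor, at least 72.7-fold higher in NCI-H660 shCtrl.

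**Figure D4:**
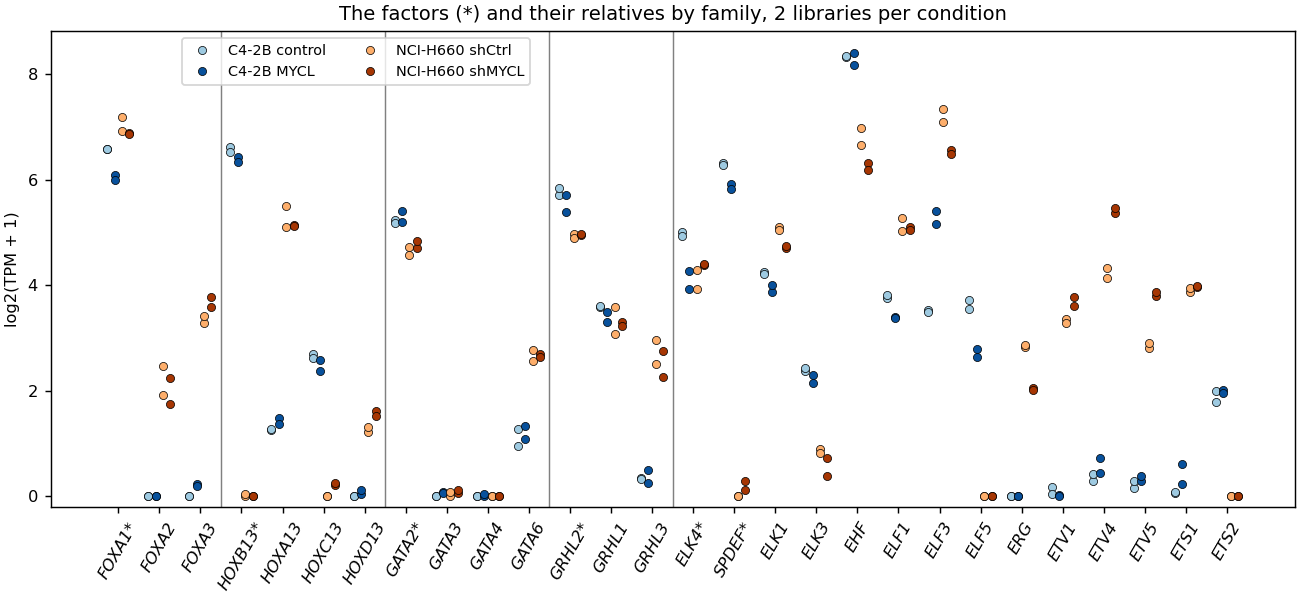
Levels as log2(TPM + 1) of the 6 factors, marked by asterisks, and their 22 relatives, with 2 points per condition. HOXB13 and SPDEF are near 0 in NCI-H660, whereas FOXA2, FOXA3, HOXD13 and ERG are near 0 in C4-2B.

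Within C4-2B, 4 of 15 tested relatives were called with MYCL, 2 higher and 2 lower, against 33.9% of all genes, and their median log2 fold change was 0.11 against −0.0017 over all genes. ELF3, an epithelial ETS factor, rose by 1.90 on the log2 scale (SE 0.09, adjusted p = 4.03e-06, edgeR), from 655 and 510 counts to 1473 and 1310. ETS1 rose by 2.91 (adjusted p = 0.0066) from 4 and 3 counts to 21 and 14. ELF5 fell by 0.88 (adjusted p = 0.000578) and ELF1 fell by 0.31 (adjusted p = 0.0232). The ETS1 and ELF1 calls were both lost without C4-2B control replicate 1, C4-2B control replicate 2 or C4-2B MYCL replicate 1, with adjusted p from 0.0502 to 0.071 for ETS1 and from 0.0511 to 0.135 for ELF1. In NCI-H660, 6 of 17 tested relatives were called, 3 higher and 3 lower, against 24.8% of all genes, with a median of −0.11. The ETS factors ETV4 and ETV5 rose by 1.18 and 1.11 after knockdown (adjusted p = 2.06e-05 and 3.22e-05, edgeR), while ERG fell by 0.92 (adjusted p = 0.00372) and ELF3 fell by 0.73 (adjusted p = 0.000321).

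Coregulators and chaperones of the androgen receptor formed a second list of 22 genes. With MYCL in C4-2B, 9 of 22 were called lower and 0 higher, where 16.7% and 17.2% of all genes were called, and the median log2 fold change was −0.18. FKBP4, a co-chaperone of steroid receptors, fell by 0.63 (SE 0.09, adjusted p = 0.0007, edgeR). SMARCA4, a chromatin-remodelling ATPase, fell by 0.45 (adjusted p = 0.00156), the histone methyltransferase gene KMT2D fell by 0.43 (adjusted p = 0.00838) and the acetyltransferase gene EP300 fell by 0.40 (adjusted p = 0.00334). In NCI-H660, 4 were called higher and 1 lower of 22, near the share of 24.8% over all genes, with a median of 0.12. NCOA4, HSP90AA1 and NCOA1 rose by 0.35, 0.35 and 0.32 (adjusted p = 0.0208, 0.0275 and 0.0471, edgeR), and HDAC3 fell by 0.41 (adjusted p = 0.0243). Each of these 4 calls was lost when a certain library was left out. Without NCI-H660 shMYCL replicate 1 the adjusted p was 0.382 for HDAC3, 0.0851 for NCOA4 and 0.185 for NCOA1, and without shMYCL replicate 2 it was 0.22 for NCOA4, 0.112 for HSP90AA1 and 0.308 for NCOA1. HSP90AA1 also lost its call without shCtrl replicate 2 (adjusted p = 0.0937). On TPM values with limma 0 of these 22 passed in NCI-H660, with 6 at an unadjusted p under 0.05.

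Genes that luminal cells express under androgen control formed a list of 11. With MYCL in C4-2B, 6 were called lower and 1 higher, against 16.7% and 17.2% of all genes, and the median log2 fold change was −0.43. ACP3, prostatic acid phosphatase, fell by 1.57 (adjusted p = 0.0109, edgeR), from 173 and 107 counts to 18 and 41. SLC45A3, which encodes prostein, fell by 1.55 (adjusted p = 4.69e-06), the channel gene TRPM8 fell by 1.12 (adjusted p = 0.000822) and STEAP1 fell by 0.56 (adjusted p = 0.000558). TMPRSS2, the 1 called higher and named for that after its values were seen, rose by 0.39 (adjusted p = 0.00346), and lost its call without C4-2B control replicate 1 and on TPM values without centring. In NCI-H660 only 7 of the 11 could be tested, and 1 was called in each direction (12.0% of all genes higher and 12.7% lower): TRPM8 fell by 0.85 (adjusted p = 0.00108) and FKBP5 rose by 0.56 (adjusted p = 0.00101).

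Epithelial genes, a list of 13 that includes junction and splicing genes around GRHL2, were called higher in 7 cases and lower in 2 with MYCL in C4-2B, against 17.2% and 16.7% of all genes, with a median of 0.33. ESRP1, an epithelial splicing regulator, rose by 0.93 (adjusted p = 0.000368, edgeR), the claudin genes CLDN4 and CLDN7 rose by 0.82 and 0.71 (adjusted p = 0.000112 and 0.000486) and RAB25 rose by 0.74 (adjusted p = 0.000572). ESRP2 and EPCAM, the 2 called lower and named for that after their values were seen, fell by 0.65 and 0.32 (adjusted p = 0.000429 and 0.00969). In NCI-H660, 2 were called higher and 4 lower of 13, against 12.0% and 12.7% of all genes, with a median of −0.16. CLDN3, CLDN4 and KRT19 fell by 0.81, 0.68 and 0.57 (adjusted p = 0.000144, 0.000451 and 0.00173, edgeR), and RAB25 rose by 0.67 (adjusted p = 0.00983, but 0.0622 without NCI-H660 shMYCL replicate 1).

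**Figure D5:**
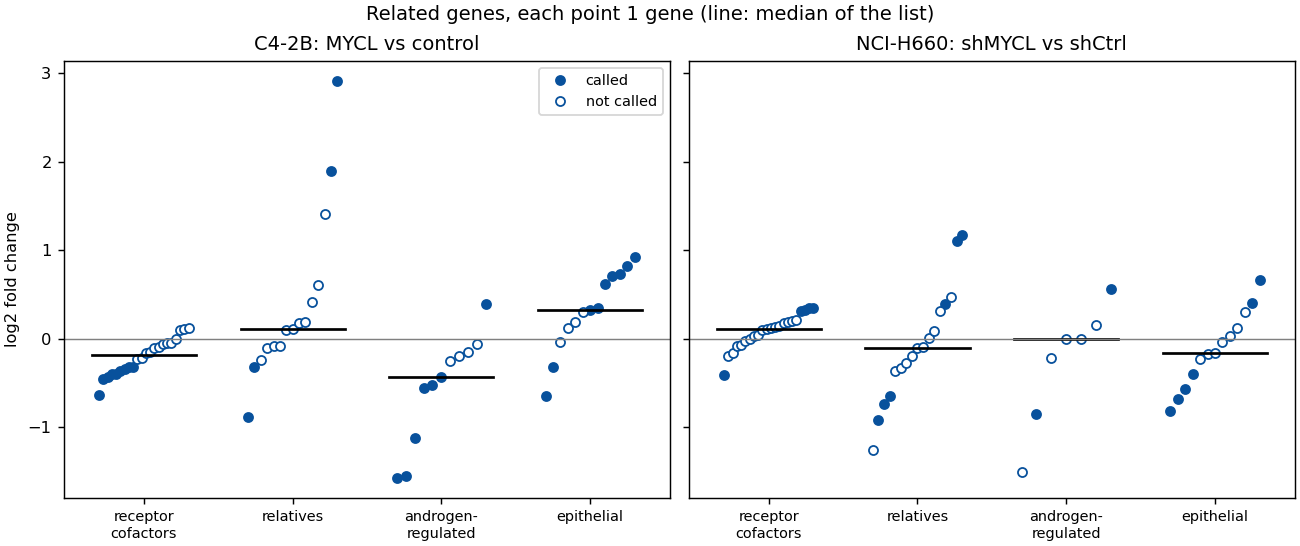
edgeR log2 fold changes of the tested genes of the 4 lists in each line. Each point is 1 gene, filled where called, and horizontal bars are list medians; receptor cofactors and androgen-regulated genes have medians of −0.18 and −0.43 in C4-2B, and epithelial genes 0.33.

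The genomic surroundings of the factors bear on how their reads were counted. Coordinates are those of GENCODE 44 on GRCh38, and the files' hg38 build is named in the submitters' processing notes. ELK4 (ENSG00000158711.15) lies on the minus strand at chr1:205597556-205632011, 25.8 kb downstream of SLC45A3 on the same strand with no GENCODE 44 gene between them. A read-through transcript that joins SLC45A3 to ELK4 is known in prostate cancer. SLC45A3 measured 227.5 and 213.7 TPM in C4-2B control and 69.6 and 66.3 TPM with MYCL, and 1.88 to 2.35 TPM in the NCI-H660 libraries. In C4-2B both genes fell, and in NCI-H660 neither was called (SLC45A3 −0.22, adjusted p = 0.597, edgeR). The part of read-through transcripts in the ELK4 counts was not tested.

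ELK4 also shares 3.46% of its exon bases with MFSD4A on the opposite strand, and whether counting used the strand is not stated in the sources. MFSD4A rose in C4-2B, from 81 and 77 counts to 113 and 187, opposite to ELK4. In NCI-H660 MFSD4A had 1545 and 1516 counts in shCtrl, near the 1691 and 1560 of ELK4, and fell to 596 and 566 in shMYCL (log2 fold change −1.20, adjusted p = 3.71e-06, edgeR). Between the control conditions MFSD4A was higher in NCI-H660 by 4.78, where ELK4 was lower. The part of MFSD4A reads in the ELK4 counts was not tested. GATA2 (ENSG00000179348.14, chr3:128479427-128493201, minus strand) shares 1.59% of its exon bases with GATA2-AS1, which fell in C4-2B by 0.34 on the log2 scale (adjusted p = 0.0211, edgeR), opposite to GATA2. FOXA1 (ENSG00000129514.8, chr14:37589552-37596059, minus strand) shares 0.362% with TTC6, and GRHL2 (ENSG00000083307.13, chr8:101492439-101669726, plus strand) 0.826% with a long non-coding RNA. HOXB13 (ENSG00000159184.8, chr17:48724763-48728750, minus strand) and SPDEF (ENSG00000124664.12, chr6:34537802-34556333, minus strand) share exon bases with no annotated gene.

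Genes with the most similar profile over the 8 libraries were sought among 10172 genes with a mean log2 CPM of at least 3, by the root mean square difference of log2 CPM centred on each gene's mean. The nearest to FOXA1 were MRE11 (0.0591) and DENR (0.062), and the nearest to GATA2 were TOB2 (0.0579) and STK32C (0.077). GRHL2 lay nearest to AP1S3 (0.0704) and EPS15 (0.0786), and ELK4 nearest to TIMM21 (0.0972) and STXBP5 (0.102). HOXB13 and SPDEF lay below this level on average and were not searched. The 8 libraries fall into 2 lines, so a shared difference between the lines is enough for a small distance.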

How the data were processed

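Poly(A) RNA was sequenced as paired-end Illumina libraries. The authors deposited gene-level estimated counts, of which 22.4% of non-zero values lay more than 0.01 from a whole number, and TPM values, which per the study's methods the authors made from counts and Ensembl gene lengths. The lengths behind the deposited TPM were not the same in every library: relative to the library median, the count per TPM varied by over 1.1 times between libraries for 39.9% of 9303 genes with at least 100 counts in each (1.028 times for FOXA1, 1.085 for GATA2, 1.116 for ELK4 and 1.141 for GRHL2). The count table held 78691 genes and that of TPM values 65535 genes. The build was hg38 per the submitters' processing notes, and aligner, counter and annotation release were not given in the sources used here. Samples were grouped by their labels. Estimated counts were rounded and tested with edgeR 4.0.16 (R 4.3.3; TMM, filterByExpr, quasi-likelihood), each line alone, as the study did with DESeq2. Differences between lines and between effects came from a single fit of all 4 groups. CPM within a line used that line's TMM factors. Alternatives were DESeq2 1.42.0, other size factors and filters, limma 3.58.1 on log2(TPM + 1) or log2(TPM + 0.1) for genes with at least 1 TPM in 2 libraries, a replicate block, and each library left out. Centring of TPM values on the library median was added after seeing the data. With 2 libraries against 2, an exact permutation test cannot go below p = 0.3333, so single-gene tests rest on the spread shared across genes. The tests were checked on simulated counts in which 200 genes changed by 1.5 on the log2 scale. They recovered 199 in C4-2B, 200 in NCI-H660, 199 between lines and 179 between effects. Of the unchanged genes 8, 3, 6 and 6 were called in these comparisons. The changed genes were drawn from those with higher counts, and every gene was given the same spread. For the test between lines, all other genes had equal means in both lines. That test was therefore not checked where most genes differ, and changes at low counts were not simulated. Smaller changes, near the threshold of 0.25, were not simulated.

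The members and gene lists were chosen with earlier results of these data known. The text names the 6 factors, MYCL, the 4 called genes of each list with the largest change per comparison, and the 2 genes with the nearest profile for each factor. Between the lines only the relatives are described; between effects, every called gene of the 4 lists that could be tested in both lines is given. Some items are not reported here, and TP63 was not analysed here. A count of 0 was read as up to 3 counts per library. Sequences and starts are RefSeq's (GRCh38.p14), and gene positions GENCODE 44.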

Additional observations from a re-analysis of the deposited data

Results flagged for a closer look

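The effect of higher MYCL differed between C4-2B and NCI-H660, by the edgeR test of the difference itself, for 2 of the 4 factors and for 24 of the 54 genes of the 4 lists that could be tested in both lines. Values are the log2 effect in C4-2B minus that in NCI-H660. Line, dose, construct and direction of the MYCL change cannot be told apart in these values. Over all 19605 genes tested, some of them expressed in a single line, 20.2% were called. With at least 10 counts in every library, 31.6% of 12771 genes were called. The lists were chosen with earlier results of these data known, so nothing particular to them is read from these counts. The factors were FOXA1 (−0.61, adjusted p = 0.00364) and ELK4 (−0.51, adjusted p = 0.0304).

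Of the 12 relatives, 4 were called with a higher effect in C4-2B and 4 with a lower. The difference was 3.0 for ETS1, 2.51 for ETV5, 1.81 for ETV4 and 1.16 for ELF3, and −1.35 for ELK3, −0.54 for EHF, −0.51 for ELK1 and −0.42 for ELF1. ETS1, ETV4 and ETV5 had at most 21 counts in any C4-2B library. ELK3 had 33 and 36 counts in NCI-H660 shCtrl and 11 and 14 in shMYCL. ELK3 and ELK1 were called in neither line alone. Of the 22 cofactors, 1 was called higher and 5 lower: HDAC1 at 0.42, and KMT2D at −0.63, EP300 at −0.56, HDAC3 at −0.56, FKBP4 at −0.53 and TRIM24 at −0.44. Of the 7 androgen-regulated genes, 3 were called, all lower: TRPM8 at −1.97, SLC45A3 at −1.77 and ACP3 at −1.58. SLC45A3 had only 56 to 76 counts in the NCI-H660 libraries, and ACP3 had 18 and 41 in C4-2B MYCL. Of the 13 epithelial genes, 4 were called higher and 3 lower: RAB25 at 1.41, ESRP1 at 0.96, CLDN7 at 0.83 and KRT18 at 0.59, and ESRP2 at −0.81, EPCAM at −0.50 and ST14 at −0.43.

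TRPM8 fell with MYCL overexpression and also fell with knockdown. RAB25 rose in both. ELF3 rose with overexpression and fell with knockdown, by 1.90 and 0.73 on the log2 scale, so that both effects of higher MYCL were positive and differed in size.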

How the results depend on the processing

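With 2 libraries per condition and a biological coefficient of variation of 0.0829 in C4-2B and 0.0965 in NCI-H660, changes near the threshold of 0.25 depend on single libraries. HOXB13 and SPDEF cannot be followed in NCI-H660 at these depths. TPM scaling moved the share of called genes that were higher in C4-2B from 50.7% to 28.8% (52.1% after centring), between the lines from 52.0% to 69.9% (41.6%) and between effects from 52.3% to 35.3% (47.8%). The cause of this and of the other moves was not tested. By construction, a higher fold threshold calls fewer genes and a stricter filter tests fewer genes. The difference in log2 CPM between replicate 1 and replicate 2 was compared over genes between the 2 conditions of a line. These differences correlated at 0.0328 in C4-2B and 0.0457 in NCI-H660. With only 2 pairs per line, this cannot decide whether same-numbered libraries shared a batch. A replicate block gave 6075 calls in C4-2B and 4690 in NCI-H660 against 5711 and 4204, with 15028 between lines and 3824 between effects, and left the counts of factors called at 4, 0, 5 and 2.

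Called factors in C4-2B were 2 to 4 with 1 library left out (2 without C4-2B control replicate 1) and 1 with the fold threshold raised to 0.5 on the log2 scale. In NCI-H660 they were 0 to 1, ELK4 being the 1 called without NCI-H660 shCtrl replicate 1. Between lines, 3 were called with at least 10 counts in every library, a filter that HOXB13 and SPDEF do not pass. Between effects, 1 was called on each of the 4 TPM settings, 1 to 3 with 1 library left out and 3, with GATA2, with at least 10 counts. Over all genes in C4-2B, 2672 were called on unfiltered TPM values and 3355 at 0.5. In NCI-H660, 1893 were called on log2(TPM + 1), 1719 on log2(TPM + 0.1), 2022 after centring, 1 without a filter, 2745 at 0.5 and 2453 to 4858 with 1 library left out. Between lines, 10028 were called with at least 10 counts. Between effects, 2626 were called on log2(TPM + 0.1), 2085 on unfiltered TPM values and 2539 to 3879 with 1 library left out.

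Over all genes in C4-2B the share called was 35.6% on log2(TPM + 1), 34.7% on log2(TPM + 0.1), 8.88% unfiltered and 31.2% centred. On log2(TPM + 1) the median of all genes shifted by −0.14, and 28.8% of the called genes were higher. Cofactors called in C4-2B were 14 on log2(TPM + 1) and log2(TPM + 0.1), 5 unfiltered, 5 centred and 1 at 0.5. In NCI-H660 they were 0 by limma on all 4 TPM settings (5 or 6 at an unadjusted p under 0.05) and 0 by edgeR at 0.5 (5 at an unadjusted p under 0.05), against 4 by DESeq2, and 1 to 5 with 1 library left out (1 without either shMYCL library). Relatives called in C4-2B were 2 unfiltered, 2 centred, 7 in a fit of all 4 groups and 2 to 5 with 1 library left out, and between lines 8 with at least 10 counts. On unfiltered TPM values in NCI-H660 limma called 0 relatives, 0 androgen-regulated genes and 0 epithelial genes, with 8, 3 and 6 at an unadjusted p under 0.05 and 5, 2 and 6 called by DESeq2. Androgen-regulated genes in NCI-H660 were 1 on the other TPM settings. Epithelial genes were 5 on unfiltered TPM values in C4-2B and 3 to 7 in NCI-H660 with 1 library left out.

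Reversals were few. GRHL2 in C4-2B ran from −0.24 to 0.03 with 1 library left out. In NCI-H660 it ran from −0.13 to 0.005 and was 0.035 on log2(TPM + 1), with or without a filter, 0.036 on log2(TPM + 0.1) and 0.030 after centring. FOXA1 between lines was 0.48 on the 3 TPM settings without centring. Of the 788 values of single genes, 685 kept their direction and their side of the threshold, 90 lost the call, 4 gained it and 9 turned.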
